A study of Mus musculus with 24 samples.

Results

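The comparison concerns the livers of male C57Bl/6J mice on control diet 9 months after a 12-week inhalation of vinyl chloride (VC) had ended. The 3 libraries of group m12_CD+VC were set against the 3 libraries of group m12_CD, 6 of the 24 libraries of the series, chosen by their labels alone. Animals of m12_CD+VC breathed VC at a nominal 0.85 ± 0.1 ppm in 6-hour sessions, 5 of them per week, and those of m12_CD breathed clean air. Both groups ate a diet with 13% fat for 12 months, carried no transgene or deletion by the labels, and were fasted for 4 hours before the liver was taken. The other groups received a Western diet with 42% fat (WD), or ended with the exposure at 12 weeks (w12). The labels give neither the age at the start nor whether each library is its own animal, so the p-values below measure the spread between libraries, which may be in part technical.

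Vinyl chloride, the gas from which PVC plastic is made, is oxidised in hepatocytes by the cytochrome P450 CYP2E1 to a reactive epoxide that rearranges to chloroacetaldehyde. Both products bind DNA and protein, and are cleared by conjugation to glutathione, by epoxide hydrolysis and by aldehyde dehydrogenases. Long exposure is known for liver angiosarcoma, hepatocellular carcinoma and fatty liver disease. The title of the series names tumour formation after transient exposure and the epitranscriptome, the chemical marks on RNA such as N6-methyladenosine (m6A), as its subjects.

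RNA freed of ribosomal RNA was sequenced and the deposited counts per gene were compared with edgeR's quasi-likelihood test, in one model of all 24 libraries, with p-values adjusted by Benjamini-Hochberg over the 4198 entries tested. "Called" below means an adjusted p under 0.05, and levels are CPM, counts of a gene set against the library's total over the tested entries after scaling by the trimmed mean of M values (TMM). The libraries were shallow. They held 353335, 126160 and 384262 counts for m12_CD+VC and 332126, 470374 and 386525 for m12_CD, so that a count of 0 allowed a level of up to 22.1 CPM in the thinnest library, m12_CD+VC 2, and of up to 7.31 to 13.1 CPM in the others. These limits cover counting error only. Library m12_CD 1 stood apart, with a TMM factor of 0.701, the lowest of all 24. The livers carried hepatocyte markers, 15 of 16 with enough counts to test, whereas red cell globins (Hba-a1, Hbb-bs), neutrophil S100a8 and T cell Cd3e had no count in any of the 6 libraries. A count of 0 does not show that a cell type was absent here, since the hepatocyte gene Ass1 and the ribosomal protein gene Rpl30 were at 0 too.

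The entries called higher after VC included enzymes of xenobiotic and fatty acid metabolism, secreted plasma proteins and ferritins. Other lists of hepatocyte genes had few or no such calls: 1 of 38 for urea cycle and amino acid breakdown, 0 of 11 for periportal genes and 0 of 8 for major urinary proteins. Their log2 differences were mostly positive all the same, in 35 of 38, 10 of 11 and 7 of 8 genes, against 2206 of all 4198 entries tested. Their medians were 1.11, 0.56 and 1.18, so the few calls do not show that these genes behaved otherwise. Of 4198 entries 217 were called (5.17%), 166 higher (3.95%) and 51 lower (1.21%) in m12_CD+VC, and 1170 had an unadjusted p under 0.05. The higher entries had a median log2 difference of 1.86 (from 1.08 to 6.14), and 110 of the 166 (66.3%) belonged to a pathway or cell type list used here, against 16.7% of all entries tested and 0 of the 51 lower ones. The lists were drawn up with earlier results of these data known, so that this contrast is not independent evidence. The lower entries had a median of -1.15 and came mostly from loci where genes on both strands overlap. CPM ranges of both groups did not overlap in 1370 entries (32.6%), 157 of the 166 higher and all 51 lower among them.

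The calls rested on few libraries. Without m12_CD 1 the count of calls was 2 (Akr1c6 and Aldh1a1), and without m12_CD+VC 2 it was 11. Leaving out m12_CD+VC 1 gave 81 calls, leaving out m12_CD 3 gave 130 and leaving out m12_CD+VC 3 gave 368. Of the 217 entries, each kept its sign without m12_CD 1 and 1 changed sign without m12_CD+VC 1. Without m12_CD 1 the median log2 difference was 1.66 for the 166 higher entries and -1.08 for the 51 lower ones. The split of calls moved with scaling. Against 166 higher and 51 lower under TMM, relative log expression (RLE) factors gave 405 higher and 7 lower, DESeq2 gave 249 and 0, and TMM factors computed apart for overlapping and other entries gave 65 and 37. A fit of the entries without an overlap alone gave 12 higher and 12 lower, a fit without the thinnest library of the series (23 libraries) gave 153 and 140, and leaving out m12_CD+VC 3 gave 167 and 201. The excess of higher calls thus did not hold in every setting. RLE and DESeq2 placed the median of all entries at 0.48 and 0.49 on the log2 scale, against 0.07 under TMM, so a list's median is given beside the medians of all entries and of its class, which the next paragraph adds.

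**Figure D1:**
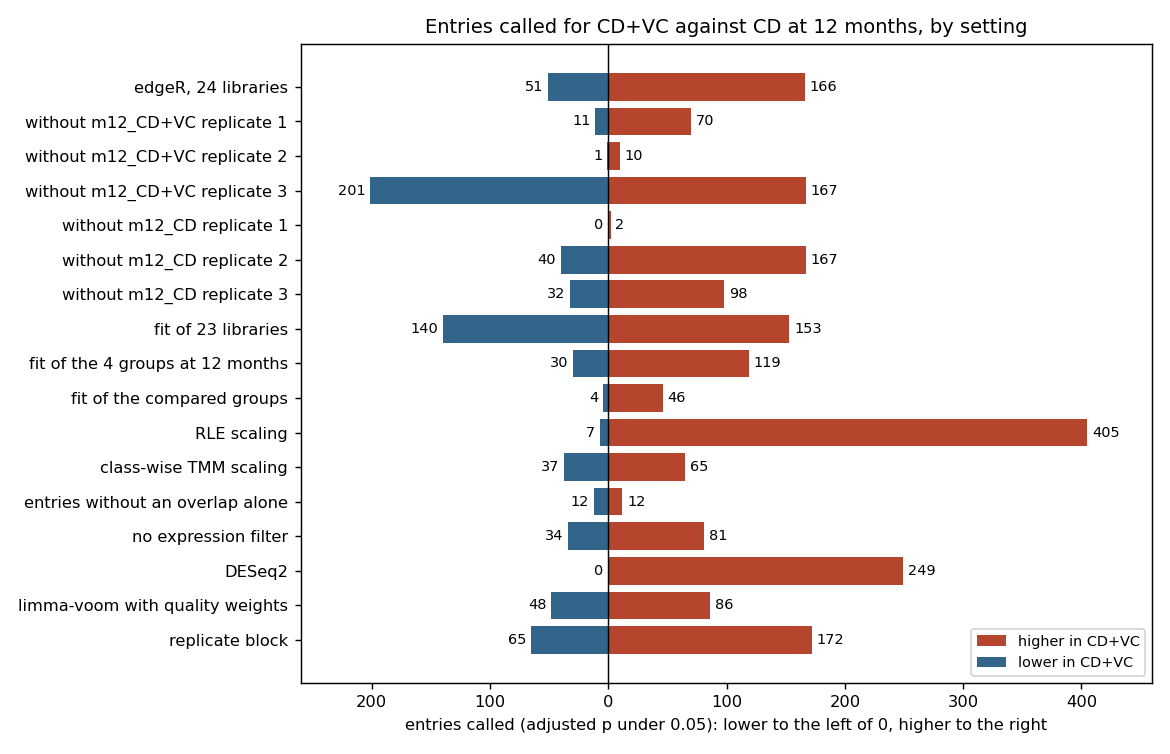
Number of entries called (adjusted p under 0.05) as higher (right of 0) or lower (left of 0) in m12_CD+VC against m12_CD, for the fit used here and each alternative. The count falls to 2 without m12_CD replicate 1 and to 11 without m12_CD+VC replicate 2, and RLE scaling leaves 7 lower calls.

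Several properties of the libraries moved with the comparison. TMM factors were 1.08, 1.14 and 0.975 in m12_CD+VC, against 0.701, 0.9 and 0.833 in m12_CD. Entries classed as antisense took 21.7, 20.2 and 22.8% of counts in m12_CD+VC, against 32.1, 23.8 and 25.3% in m12_CD. Neither measure overlapped between the groups. Entries whose exons overlap no gene on the other strand took 25.8, 31.7 and 22.5% of counts in m12_CD+VC, against 11.6, 18.3 and 17% in m12_CD (26.7 ± 4.63 and 15.6 ± 3.56%, SD, n = 3 each, two-sided exact permutation p = 0.1, the smallest that 3 against 3 allows). The ranges did not overlap. At 12 months on Western diet the same share was 21, 23 and 18.2% with VC and 25.2, 30.1 and 22.5% without, and at 12 weeks on control diet it was 18.5, 18.7 and 14.3% with VC and 22.1, 15.8 and 13.3% without. The m12_CD+VC libraries held the highest single value of the 24 libraries and m12_CD the lowest. Among entries tested, the median log2 difference was 0.58 for the 2030 without an overlap, of which 125 were higher (6.16%), and -0.30 for the 2123 with one, of which 43 were lower (2.03%). Most members of the gene lists have no overlap, so most list medians are to be read against 0.58 and shares of higher calls against 6.16%. The lists for DNA adduct repair, the cell cycle and endothelial cells differ. Of their tested members 3 of 12, 1 of 5 and 1 of 6 are without an overlap, so their medians are to be read against -0.30. The part of these library properties in the results was not tested.

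**Figure D2:**
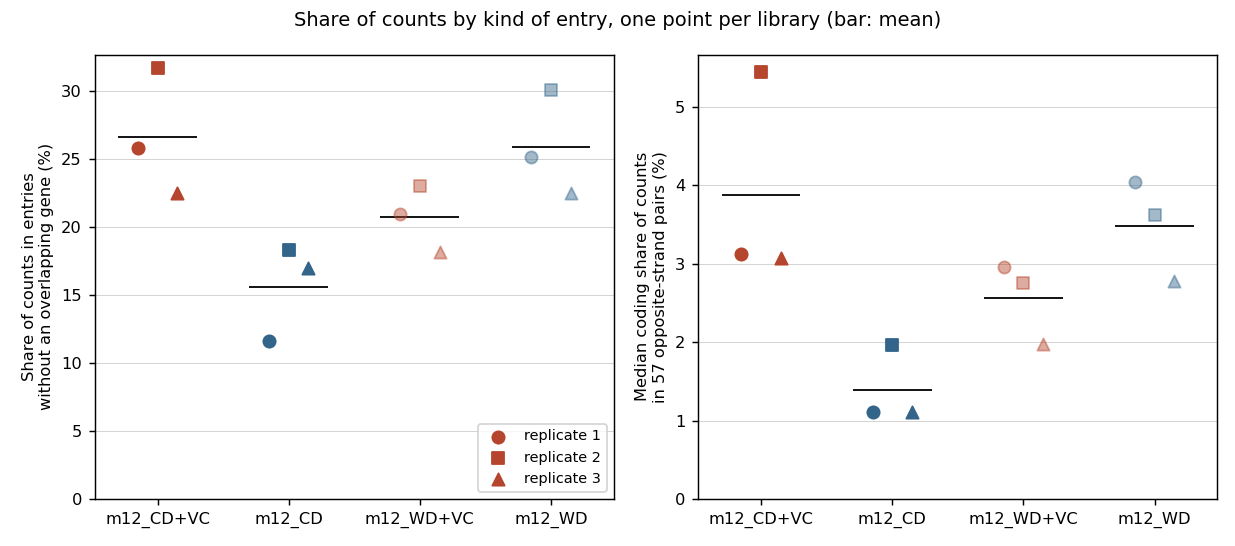
Share of counts in entries without an overlapping gene on the other strand (left) and median coding share of counts in 57 opposite-strand pairs (right), in percent, for the 12 libraries at 12 months. Points are libraries, bars are group means; the 3 m12_CD+VC libraries lie above the 3 m12_CD libraries in both panels.

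Among genes that handle VC and its aldehyde, 7 of 21 tested were higher and 0 lower, with a median log2 difference of 1.42 (1.14 without m12_CD 1). Aldh1a1, a cytosolic aldehyde dehydrogenase that oxidises retinal, had 202, 384 and 170 CPM in m12_CD+VC, against 8.76, 58.5 and 38.3 CPM in m12_CD. Every library with VC lay above every control library, and the difference was 6.45-fold (log2 2.69 ± 0.45 SE, adjusted p = 0.00297). It was called in all 6 fits that left out a library, with log2 values from 2.21 to 3.27. Alcohol dehydrogenase Adh1 had 442, 495 and 382 CPM in m12_CD+VC, against 39.4, 149 and 169 CPM in m12_CD (log2 1.84 ± 0.40, adjusted p = 0.0143; 1.43 without m12_CD 1). Cyb5a, cytochrome b5, an electron donor of P450s, was 3.51-fold higher (adjusted p = 0.00715), and Aldh7a1 was 2.67-fold higher (adjusted p = 0.0231).

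The gene that activates VC itself was not called. Cyp2e1 had 476, 3110 and 1770 CPM in m12_CD+VC, against 228, 782 and 798 CPM in m12_CD, and the groups overlapped (log2 1.54 ± 0.52, adjusted p = 0.0788). Aldh2, the mitochondrial enzyme that oxidises chloroacetaldehyde, had 893, 1110 and 1020 CPM in m12_CD+VC, against 254, 670 and 779 CPM in m12_CD (log2 0.82 ± 0.30, adjusted p = 0.0857). The epoxide hydrolase Ephx1 had 113, 44.3 and 22.3 CPM in m12_CD+VC, against 0, 29.3 and 41.5 CPM in m12_CD (log2 1.28 ± 0.55, adjusted p = 0.126).

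Of the glutathione genes 6 of 14 tested were higher and 0 lower, with a median of 1.56 (1.22 without m12_CD 1). Gstp1, a pi-class glutathione transferase, had 83.0, 66.4 and 69.6 CPM in m12_CD+VC, against 0, 14.6 and 9.58 CPM in m12_CD, resting on 64 and 9 counts in all (log2 2.97 ± 0.63, adjusted p = 0.00971; 2.51 without m12_CD 1). Gpx1, the glutathione peroxidase that reduces hydrogen peroxide, had 188, 413 and 134 CPM in m12_CD+VC, against 56.9, 68.3 and 79.8 CPM in m12_CD (log2 1.77 ± 0.37, adjusted p = 0.0072). The membrane transferase Mgst1 and the alpha-class transferase Gsta3 were 4.28-fold and 3.57-fold higher. Gsta3 had 8.76 CPM in m12_CD 1 and 117 and 118 CPM in the other controls, and without m12_CD 1 its log2 difference was 1.34 against 1.83 with it.

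Of the xenobiotic P450s and their receptors 7 of 23 tested were higher and 0 lower (median 1.31, and 1.07 without m12_CD 1). Cyp1a2, a P450 of pericentral hepatocytes regulated by the aryl hydrocarbon receptor, had 35.9, 185 and 100 CPM in m12_CD+VC, against 13.1, 9.75 and 22.4 CPM in m12_CD (log2 2.72 ± 0.56, adjusted p = 0.00715). Its log2 difference hardly moved without m12_CD 1 (2.64), but it was not called in that fit, nor without m12_CD+VC 2, its highest library. Cyp3a11, the main drug-oxidising P450 of mouse liver, had 232, 162 and 75.2 CPM in m12_CD+VC, against 8.76, 56.1 and 35.1 CPM in m12_CD (log2 2.12 ± 0.54, adjusted p = 0.026). Cyp2c67 rested on 38 counts in m12_CD+VC and 6 in m12_CD (log2 3.01 ± 0.79, adjusted p = 0.026). Cyp2b10, a target of the receptor CAR, had no count in the 6 libraries. Of the other conjugating and hydrolysing enzymes 5 of 21 were higher and 0 lower (median 1.49), among them the glucuronosyltransferase Ugt2b36, 5.50-fold higher (adjusted p = 0.0196), and the carboxylesterase Ces1d, 4.02-fold higher (adjusted p = 0.0232).

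Peroxisomal fat oxidation was among the lists with most calls. Of its 24 tested genes, most of them targets of the nuclear receptor PPAR-alpha, 8 were higher and 0 lower, with a median of 1.43 (1.06 without m12_CD 1). The bifunctional enzyme Ehhadh had 105, 59.1 and 72.4 CPM in m12_CD+VC, against 0, 12.2 and 25.6 CPM in m12_CD (log2 2.56 ± 0.57, adjusted p = 0.0132). Its lowest VC library lay above the highest control. Ppara itself rested on 28 counts in m12_CD+VC and 5 in m12_CD (log2 2.71 ± 0.77, adjusted p = 0.038), and the sterol carrier Scp2 had 525, 731 and 465 CPM in m12_CD+VC, against 65.7, 205 and 240 CPM in m12_CD (log2 1.71 ± 0.40, adjusted p = 0.0171; 1.33 without m12_CD 1).

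Mitochondrial beta-oxidation and ketogenesis had 8 of 24 tested genes higher and 0 lower (median 1.24, and 0.89 without m12_CD 1). Cpt1a, which commits fatty acids to mitochondria, had 113, 199 and 201 CPM in m12_CD+VC, against 21.9, 60.9 and 83.0 CPM in m12_CD (log2 1.56 ± 0.41, adjusted p = 0.0231). Among lipid droplet and fatty acid carrier genes 3 of 18 were higher: the droplet coat protein Plin2 with 224, 229 and 343 CPM in m12_CD+VC, against 8.76, 99.9 and 89.4 CPM in m12_CD (adjusted p = 0.0196), and the acyl-CoA synthetases Acsl1 and Acsl5, 4.63-fold and 3.81-fold higher. Fatty acid and triglyceride synthesis had 2 of 22 genes higher and sterol synthesis 1 of 14, with medians of 1.10 and 0.40 and no lower call.

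**Figure D3:**
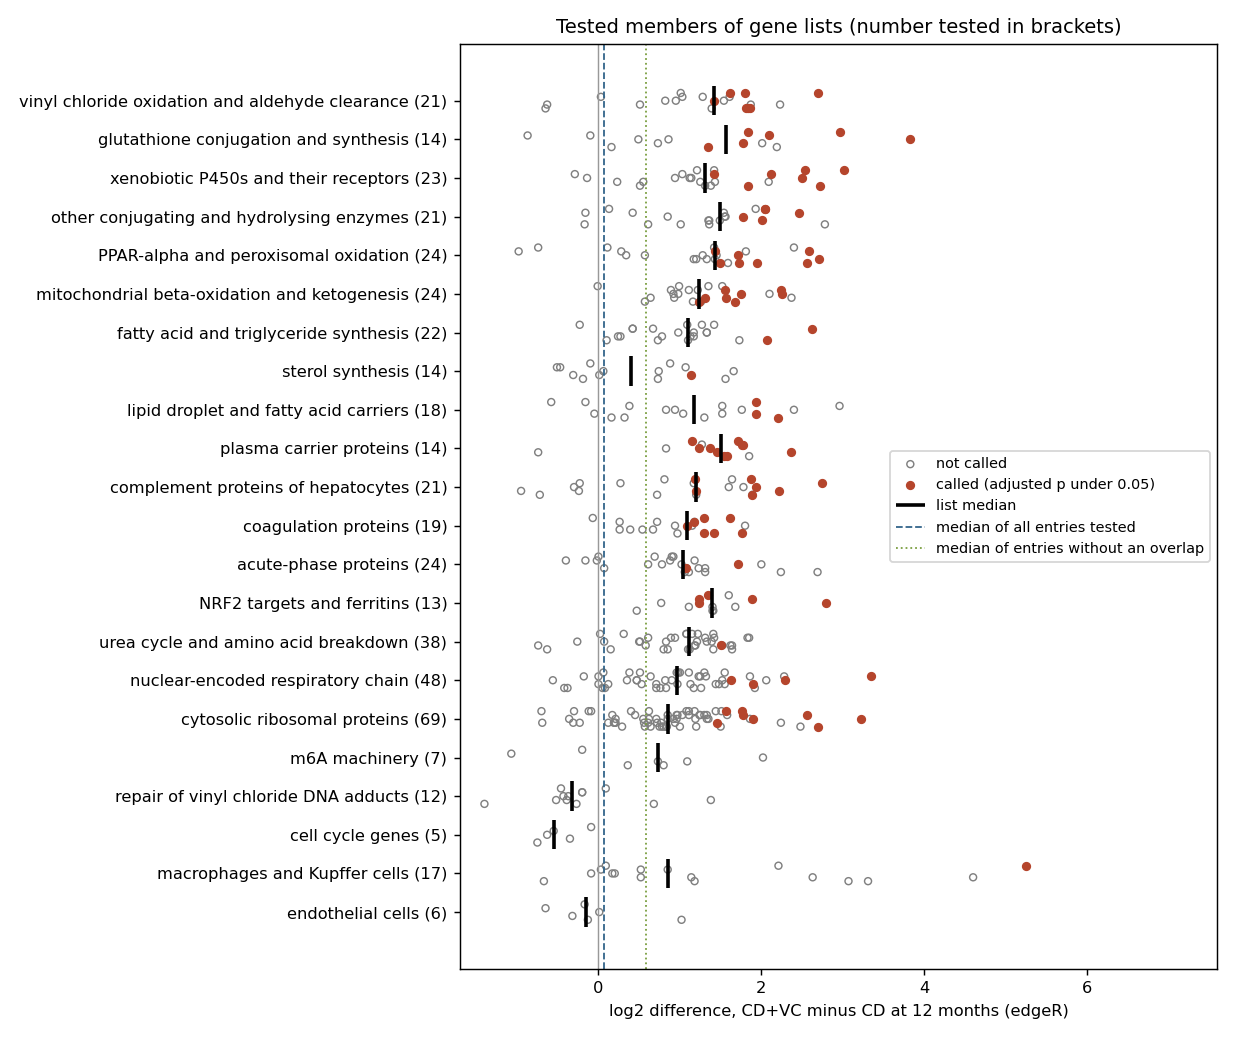
Log2 difference (m12_CD+VC minus m12_CD, horizontal axis) of each tested member of 22 gene lists, with called members filled, the list median as a black bar, the median of all entries tested, 0.07, as a dashed line and that of entries without an overlap, 0.58, as a dotted line. Called members lie on the positive side in every list shown, and the lists for DNA adduct repair and the cell cycle have medians of -0.32 and -0.55 with no call. Few tested members of those lists are without an overlap (3 of 12 and 1 of 5), so the dotted line is not their reference.

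Secreted proteins showed the same direction. Plasma carrier proteins had 10 of 14 tested genes higher and 0 lower, the largest share of the pathway lists with 5 or more tested genes (median 1.5, and 1.14 without m12_CD 1). This rank did not hold with TMM factors computed apart for overlapping and other entries. That setting called 2 of the 14, against 3 of 14 glutathione, 4 of 21 VC and aldehyde and 5 of 24 peroxisomal genes. It called 1 of 23 xenobiotic P450 genes and 0 of 21 other conjugating enzymes, but still 3 of 18 lipid droplet and carrier genes. Albumin, Alb, had 11700, 18100 and 9050 CPM in m12_CD+VC, against 1360, 4840 and 5210 CPM in m12_CD (3.40-fold, log2 1.77 ± 0.42, adjusted p = 0.022; 1.34 without m12_CD 1). Its m12_CD+VC levels were also above those of the other groups read here, 4460, 4240 and 3140 CPM with VC and 6830, 3570 and 3600 CPM without at 12 weeks on control diet, and 2530, 3160 and 2000 CPM with VC and 7440, 6520 and 2480 CPM without at 12 months on Western diet. Transferrin, Trf, which carries iron, was 2.58-fold higher (adjusted p = 0.022), and hemopexin, Hpx, which binds haem, 3.28-fold (adjusted p = 0.0196). Of 17 apolipoprotein and lipoprotein assembly genes 3 were higher: Apob, the structural protein of very low density lipoproteins, with 520, 819 and 460 CPM in m12_CD+VC, against 70.1, 222 and 188 CPM in m12_CD (adjusted p = 0.00715), Apoa2 (2.48-fold) and Lrp1.

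Complement had 7 of 21 tested genes higher (median 1.20) and coagulation 7 of 19 (median 1.09), again with no lower call. C3, the central complement protein, had 3450, 4410 and 3160 CPM in m12_CD+VC, against 1270, 1780 and 1810 CPM in m12_CD (log2 1.18 ± 0.32, adjusted p = 0.0293). C8a and Hc, parts of the membrane attack complex, were 3.67-fold and 4.65-fold higher, and prothrombin, F2, and antithrombin, Serpinc1, were 2.44-fold and 3.05-fold higher. Acute-phase proteins had 2 of 24 genes higher, Orm1 and Cp, while haptoglobin, Hp, had 907, 2160 and 1760 CPM in m12_CD+VC, against 674, 1010 and 674 CPM in m12_CD, and was not called (adjusted p = 0.0698). The protease inhibitor Serpina3k was 5.63-fold higher (adjusted p = 0.0274), but its family members are near-identical copies, so its level is uncertain. Major urinary proteins had 0 of 8 tested genes called in edgeR. The largest of them by p was Mup20, with 318, 687 and 178 CPM in m12_CD+VC, against 17.5, 107 and 76.7 CPM in m12_CD (adjusted p = 0.0722).

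**Figure D4:**
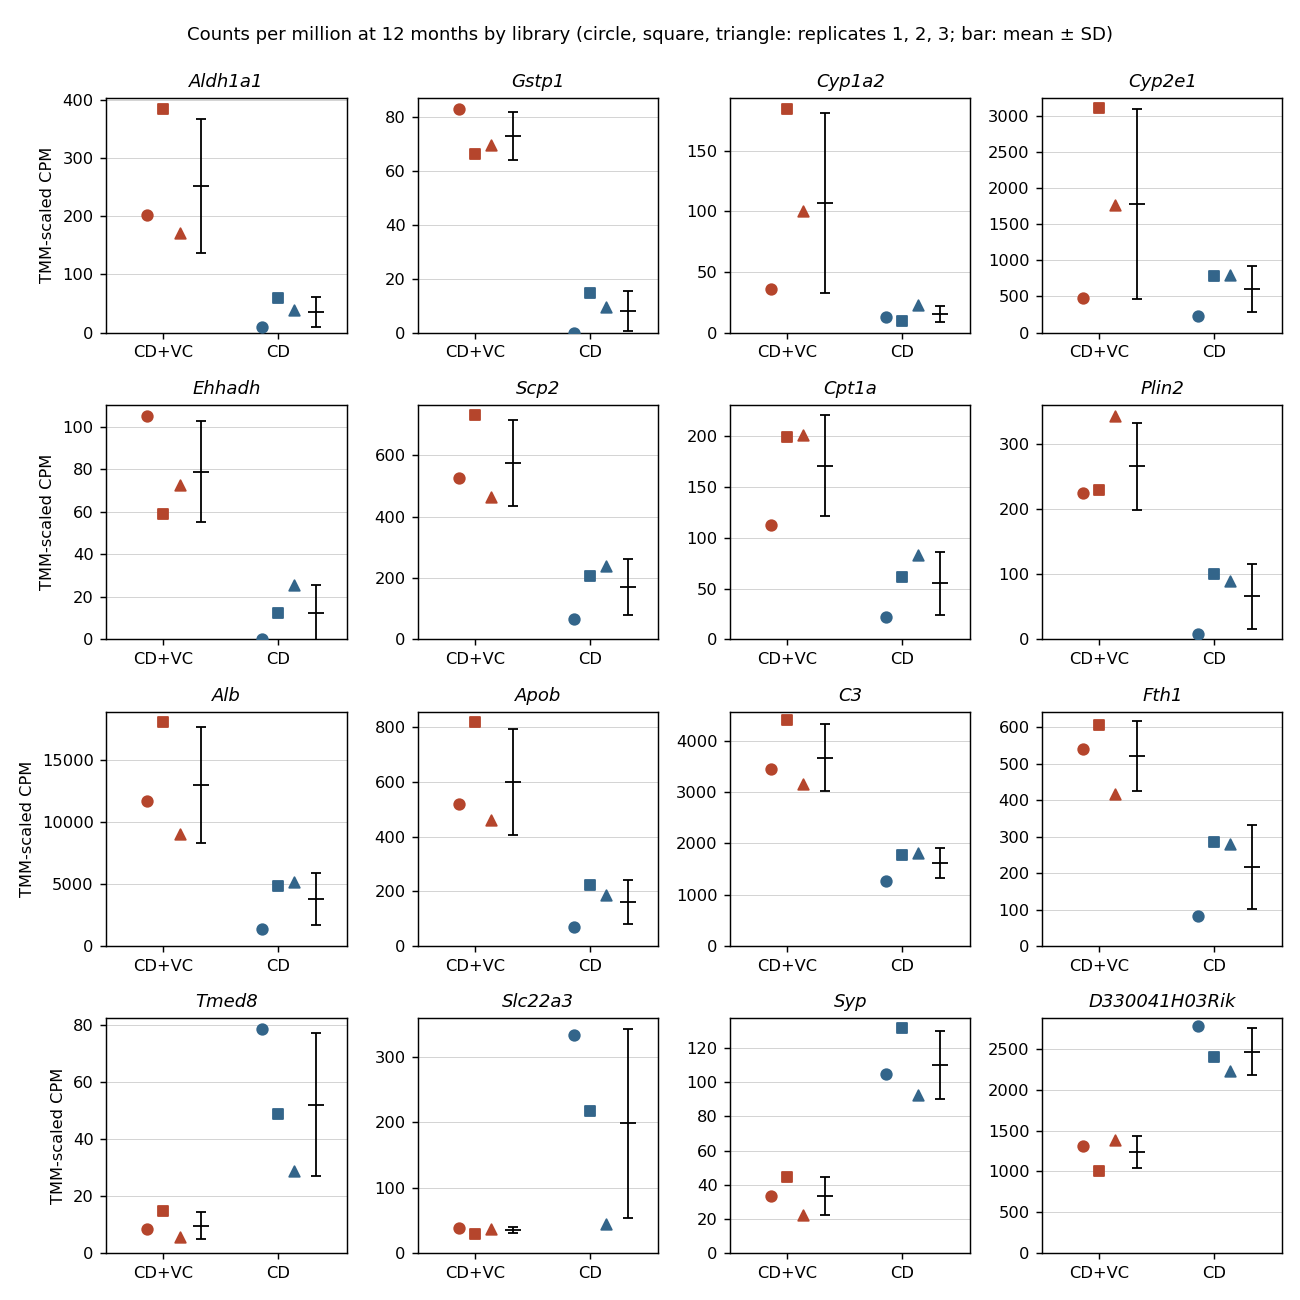
TMM-scaled CPM (linear axes from 0) of 16 genes in the 3 m12_CD+VC libraries (left in each panel) and the 3 m12_CD libraries (right), with mean ± SD. In every panel but Cyp2e1 the groups do not overlap, and m12_CD replicate 1 (circle) is the lowest control for most of the genes that rose.

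Proximal promoters are shown for 4 of 5 genes looked up among those that rose, one from each of the plasma protein, aldehyde, peroxisomal and P450 groups, from 250 bases before to 50 bases after the start listed by RefSeq on build GRCm38.p6, 5′ to 3′ on the gene's strand. Capitals mark matches on either strand to the motifs searched: the TATA box written TATAAA, the CCAAT box, the half-site of the factor HNF1 written GTTAAT, the site of HNF4 written CAAAGTCCA, the C/EBP site written TTGCNNAA, the nuclear receptor half-site written AGGTCA and the antioxidant response element written TGACNNNGC. Alb lies at chr5:90460620-90460919 on the plus strand, Aldh1a1 at chr19:20492333-20492632 on the plus strand (1 of 2 listed starts), Ehhadh at chr16:21787785-21788084 on the minus strand and Cyp1a2 at chr9:57683606-57683905 on the minus strand.
Alb: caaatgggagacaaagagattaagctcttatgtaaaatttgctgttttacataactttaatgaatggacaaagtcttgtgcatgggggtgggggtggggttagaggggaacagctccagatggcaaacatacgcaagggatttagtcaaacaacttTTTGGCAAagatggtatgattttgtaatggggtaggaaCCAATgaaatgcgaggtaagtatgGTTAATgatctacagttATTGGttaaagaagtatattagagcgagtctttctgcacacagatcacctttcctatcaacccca
Aldh1a1: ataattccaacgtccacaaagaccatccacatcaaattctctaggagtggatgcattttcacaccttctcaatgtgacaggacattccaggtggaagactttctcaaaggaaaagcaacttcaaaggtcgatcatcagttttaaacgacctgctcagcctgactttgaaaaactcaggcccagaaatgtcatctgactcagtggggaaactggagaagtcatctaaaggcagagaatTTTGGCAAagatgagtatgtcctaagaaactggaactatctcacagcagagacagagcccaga
Ehhadh: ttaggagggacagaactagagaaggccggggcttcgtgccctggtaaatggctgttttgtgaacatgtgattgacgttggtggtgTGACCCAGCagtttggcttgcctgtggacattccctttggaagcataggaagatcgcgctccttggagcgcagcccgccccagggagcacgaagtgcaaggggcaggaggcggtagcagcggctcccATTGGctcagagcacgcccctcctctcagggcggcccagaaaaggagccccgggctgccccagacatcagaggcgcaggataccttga
Cyp1a2: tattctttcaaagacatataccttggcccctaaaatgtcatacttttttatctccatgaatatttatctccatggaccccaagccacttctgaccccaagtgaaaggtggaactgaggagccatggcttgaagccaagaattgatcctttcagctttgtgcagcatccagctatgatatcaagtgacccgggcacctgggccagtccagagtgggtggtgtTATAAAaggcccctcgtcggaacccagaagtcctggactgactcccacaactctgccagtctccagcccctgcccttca
The fifth, Gstp1 of the glutathione group, held none of these letters in the same window and is not printed. Promoters were listed for 136 of the 166 higher and 34 of the 51 lower entries. Of the 136 promoters of higher entries, 11.8% held an HNF1 half-site. The share was 5.16% in 3214 promoters of tested entries and 7.2% in all 27025 promoters. A C/EBP match was in 16.9% of the 136, against 10.1 and 10.8% in those sets. The TATA box was in 16.2%, against 8.09 and 14.2%, and the nuclear receptor half-site in 18.4%, against 14.3 and 16.0%. The antioxidant response element was in 16.9%, against 13.9 and 12.5%, the HNF4 site in 2.21%, against 0.685 and 0.477%, and CCAAT in 44.9%, against 40.0 and 37.9%. Among the lower entries the shares were 2.94% for HNF1, 11.8% for C/EBP, 5.88% for the TATA box, 17.6% for the nuclear receptor half-site, 20.6% for the antioxidant response element, 0.0% for HNF4 and 38.2% for CCAAT, so the antioxidant response element was found at a larger share there than among the higher ones. HNF1, HNF4 and C/EBP are factors that keep liver genes active; a match is a description of the letters only, and the shares were not tested.

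Iron storage and oxidant defence genes had 5 of 13 tested members higher and 0 lower (median 1.40, and 1.10 without m12_CD 1). Ferritin heavy chain, Fth1, had 539, 605 and 418 CPM in m12_CD+VC, against 83.2, 285 and 281 CPM in m12_CD (log2 1.23 ± 0.33, adjusted p = 0.0274; 0.84 without m12_CD 1), and the light chain, Ftl1, was 2.37-fold higher. Osgin1, a target of the oxidant sensor NRF2, rested on 54 and 9 counts (log2 2.79 ± 0.71, adjusted p = 0.022). Of 10 heat shock genes 3 were higher. Hsph1, a heat shock protein that helps other chaperones release their clients, had 19 counts in m12_CD+VC and 0 in m12_CD. With the control floor at 3 counts over the group and the 19 counts taken as exact, it was 7.04-fold higher. That value allows for counting error of the control's 0 only. It leaves out the error of the 19 counts and the spread between libraries, so it is no strict lower bound. Hspa8 was 3.24-fold higher (adjusted p = 0.0463). In the unfolded protein list 2 of 17 were higher, Pdia3 and Xbp1, the transcription factor of the response, with 85.7, 66.4 and 72.4 CPM in m12_CD+VC, against 21.9, 21.9 and 16.0 CPM in m12_CD (adjusted p = 0.0171).

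Respiratory chain subunits had 4 of 48 tested genes higher (8.33%, median 0.96, and 0.89 among members without an overlap) and cytosolic ribosomal proteins 8 of 69 (11.6%, median 0.85, and 0.96), with no lower call in either. Against the 6.16% and the median of 0.58 of all entries without an overlap, these lists stood little above their class, and are given for their single genes. Atp5b, the catalytic subunit of ATP synthase, had 241, 384 and 217 CPM in m12_CD+VC, against 48.2, 99.9 and 67.1 CPM in m12_CD (log2 1.90 ± 0.35, adjusted p = 0.00397). Rpl13 and Rpsa were 2.97-fold and 5.90-fold higher, and reads of ribosomal protein genes may be shared with processed pseudogenes. Urea cycle and amino acid genes had 1 of 38 higher, the glutamine synthetase Glul, and a median of 1.11. Cps1, which starts the urea cycle, had 711, 657 and 248 CPM in m12_CD+VC, against 21.9, 183 and 233 CPM in m12_CD (log2 1.83 ± 0.78, adjusted p = 0.144). Outside these lists or at their top by p stood Akr1c6, a hydroxysteroid dehydrogenase (94.0, 281 and 128 CPM in m12_CD+VC, against 26.3, 24.4 and 16.0 CPM in m12_CD, adjusted p = 0.00397), the aminopeptidase Lap3 (4.97-fold, adjusted p = 0.00397) and the lysosomal Psap (6.06-fold, adjusted p = 0.00715). Akr1c6 was called in all 6 fits that left out a library.

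The list of hepatocyte markers summed to 27700, 40500 and 22600 CPM in m12_CD+VC, against 5600, 14400 and 14700 CPM in m12_CD, with 6 of 15 tested markers higher and all 15 positive. In bulk tissue a change in the share of a cell type and a change of RNA per cell cannot be told apart. Macrophage and Kupffer cell markers summed to 608, 340 and 348 CPM in m12_CD+VC, against 223, 219 and 249 CPM in m12_CD, and had a median of 0.85, but 1 of 17 was called. That gene, the protease Ctss, rested on 13 counts in m12_CD+VC 1 and none in any of the other 5 libraries. Lyz2, macrophage lysozyme, had 24 and 3 counts (8.89-fold, exact 95% counting interval 2.70 to 46.1, adjusted p = 0.0737), and Cd5l had 41.5, 36.9 and 36.2 CPM in m12_CD+VC, against 0, 17.1 and 3.19 CPM in m12_CD (adjusted p = 0.0696). Stellate cell and fibroblast markers summed to 393, 436 and 409 CPM in m12_CD+VC and 390, 392 and 345 CPM in m12_CD. Of 7 tested, 1 was called, the matrix proteoglycan Bgn, on 21 and 2 counts, while the collagen Col3a1 was not (log2 2.09 ± 0.80, adjusted p = 0.0994). Endothelial markers summed to 877, 598 and 783 CPM in m12_CD+VC and 920, 882 and 719 CPM in m12_CD, with 0 of 6 called in edgeR and a median of -0.15. The cholangiocyte markers Krt7 and Cftr had no count in the 6 libraries. The part of these cell types in the results was not tested.

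Genes tied to the title's subjects were not called. The m6A list had 7 of 21 entries in the table with enough counts to test and 0 called. Of all entries tested 5.17% were called, so 0 calls in lists this small, here and below, is no result about their genes. Mettl3, the methyltransferase that writes m6A, had 130, 125 and 125 CPM in m12_CD+VC, against 140, 154 and 144 CPM in m12_CD (log2 -0.20 ± 0.30, adjusted p = 0.689), and the demethylase Alkbh5 had 11.1, 22.1 and 19.5 CPM in m12_CD+VC, against 13.1, 4.88 and 22.4 CPM in m12_CD. The demethylase Fto, with 10 and 4 counts in all, and the reader Ythdf2, with 6 and 7, were too low to test. Genes that repair the DNA adducts of VC had 12 of 33 tested, 0 called and a median of -0.32. Mpg, the glycosylase that removes etheno bases, had 24.9, 14.8 and 58.5 CPM in m12_CD+VC, against 48.2, 39.0 and 51.1 CPM in m12_CD (log2 -0.37 ± 0.48, adjusted p = 0.642). The cell cycle list had 5 of 22 tested and 0 called. Its members Aurka and Ccna2 had log2 differences of -0.75 ± 0.30 and -0.35 ± 0.28 with adjusted p of 0.113 and 0.421. The fetal and tumour marker Afp had 58.1, 36.9 and 120 CPM in m12_CD+VC, against 118, 117 and 144 CPM in m12_CD (adjusted p = 0.256). Gpc3 and Cdkn1a had 1 count each in m12_CD+VC and 0 in m12_CD, and Mki67 had 3 and 1. For these low genes a difference was not detectable at this depth.

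The 51 lower entries were of another kind: 43 overlapped a gene on the other strand, 7 did not and 1 could not be placed. Among those without an overlap, Tmed8, a protein related to vesicle cargo receptors, had 8.30, 14.8 and 5.57 CPM in m12_CD+VC, against 78.8, 48.8 and 28.7 CPM in m12_CD, and rested on 7 and 47 counts (log2 -2.55 ± 0.60, adjusted p = 0.0171; -2.21 without m12_CD 1). Krtcap3 and Mroh2a, also free of an overlap, had log2 differences of -1.46 ± 0.44 and -0.92 ± 0.27. Of the overlapping entries, the cation transporter Slc22a3 had 38.7, 29.5 and 36.2 CPM in m12_CD+VC, against 333, 217 and 44.7 CPM in m12_CD (log2 -2.45 ± 0.60, adjusted p = 0.022). Slc22a3 lies at chr17:12418960-12507704 (mm10) on the minus strand and overlaps Plg, the plasminogen gene at chr17:12378608-12419385 on the plus strand, which was 2.12-fold higher (adjusted p = 0.0395). The adenylyl cyclase Adcy3, the nerve terminal protein gene Syp and the GTP-binding protein gene Gtpbp6 had log2 differences of -1.67, -1.80 and -1.78, each with an adjusted p of 0.022. Oaz3, an antizyme gene of the germ line, had 1 count in m12_CD+VC and 21 in m12_CD, 18.9-fold higher in the m12_CD libraries (exact 95% counting interval 3.04 to 781, adjusted p = 0.0418).

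The 2 lower entries with the highest levels, Gm12992 and D330041H03Rik, were noncoding. D330041H03Rik, at chr17:24404649-24414542 opposite the transporter gene Abca3, had 1310, 1010 and 1390 CPM in m12_CD+VC, against 2790, 2400 and 2230 CPM in m12_CD (log2 -0.99 ± 0.24, adjusted p = 0.0196). Gm12992 fell together with its partner Srsf4, a splicing factor gene, by 0.90 and 0.93 on the log2 scale (adjusted p = 0.0471 and 0.0487). The named library kit does not mark strand and no label says whether counting used strand. The counts of opposite entries were nonetheless uneven. Over the series Gm30505 held 98.8% of the counts of its pair with Ahsg, and Gm10069 98.9% of those with Pzp. Which strand the counts came from was not tested, so a level given here may not be that of the named transcript.

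In the most counted loci of this kind the coding partner took a larger share after VC on control diet at 12 months. Over 57 pairs of a coding gene and an opposite noncoding entry, each with at least 5000 counts in the series and at least 50% of them in the noncoding entry (a rule chosen after the data were seen), the median coding share was 3.12, 5.45 and 3.07% in m12_CD+VC, against 1.11, 1.96 and 1.11% in m12_CD (two-sided exact permutation p = 0.1, the smallest possible). The mean share in these 6 libraries was higher with VC in 42 of 57 pairs. In 18 of 57 pairs every VC library lay above every control library, with 0 pairs the other way. By CPM of single entries, a different measure, the groups did not overlap, in either direction, in 32.6% of all entries tested. Whether the separation was particular to the pairs was not tested. On Western diet at 12 months the median coding share was 2.96, 2.76 and 1.97% with VC and 4.04, 3.62 and 2.78% without. At 12 weeks on control diet it was 1.33, 1.81 and 2.06% with VC and 2.72, 1.88 and 1.15% without. Ahsg, which encodes fetuin-A, and the entry Gm30505 opposite to it form the pair with most counts. Ahsg held 1.69, 2.86 and 1.29% of the pair's counts in m12_CD+VC, against 0.197, 0.753 and 0.644% in m12_CD, and was 2.36-fold higher (adjusted p = 0.0313), while Gm30505 was not called (log2 -0.83 ± 0.40, adjusted p = 0.169). For Pzp, a plasma protease inhibitor, and Gm10069 the coding share was 1.86, 3.15 and 1.42% in m12_CD+VC, against 0.133, 0.710 and 0.609% in m12_CD. Gm30505 and Gm10069 alone took 15.1, 14.7 and 15.5% of all counts in m12_CD+VC, against 25.0, 16.4 and 16.6% in m12_CD. The part of these shares in the gene results was not tested.

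Whether the VC difference depended on diet was tested with the contrast of the VC difference on Western diet minus that on control diet, which shares the 6 libraries above. It called 410 entries (9.77%), 149 positive and 261 negative, against 155 without m12_CD 1 and 136 without m12_CD+VC 2. The split moved with the setting, with 40 positive and 465 negative calls under RLE, 11 and 241 in DESeq2, 199 and 211 in the fit of 23 libraries, and 79 and 53 among entries without an overlap alone. On Western diet VC itself gave 25 calls (0.596%). The 166 entries higher on control diet had a median log2 difference of -0.61 there, with 0 of the 166 called on Western diet. That median was -0.04 for all entries tested and -0.19 for those without an overlap. Ehhadh was the steepest of the named peroxisomal genes. On Western diet it had 37.1, 68.9 and 30.1 CPM with VC and 161, 149 and 78.4 CPM without (log2 -1.41 ± 0.46, adjusted p = 0.198), and the interaction was -3.97 ± 0.73 (adjusted p = 0.00229). Aldh1a1 had 111, 138 and 109 CPM with VC and 180, 273 and 104 CPM without on Western diet, and an interaction of -3.29 ± 0.60 (adjusted p = 0.00229). Alb had an interaction of -2.86 ± 0.59 (adjusted p = 0.00638). The share of counts without an overlap moved the same way, higher with VC on control diet and lower with VC on Western diet, as given above.

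Of the positive interactions, the 3 with the smallest p were Zfhx2os, Zfp668 and Kmt2d, which VC raised on Western diet and which were not called on control diet. Zfhx2os, an entry opposite the gene Zfhx2, had 384, 325 and 376 CPM in m12_CD+VC, against 434, 293 and 204 CPM in m12_CD. On Western diet it had 371, 157 and 257 CPM in m12_WD+VC, against 22.7, 29.8 and 37.1 CPM in m12_WD (interaction 2.80 ± 0.48, adjusted p = 0.00134). The histone methyltransferase gene Kmt2d had 122, 177 and 134 CPM in m12_CD+VC and 197, 171 and 230 CPM in m12_CD, and 89.1, 77.8 and 98.5 CPM in m12_WD+VC against 17, 25.2 and 20.6 CPM in m12_WD (interaction 2.55 ± 0.51, adjusted p = 0.00434).

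At the end of exposure VC on control diet gave 0 calls in edgeR (0.0%), with 169 entries at an unadjusted p under 0.05. The 166 entries that were higher at 12 months had a median log2 difference of -0.06 at 12 weeks. The difference between the times, which shares the m12 libraries, called 5 entries (0.119%): Aldh1a1, Apob, Atp5h, Entpd5 and Gstt2, each with an adjusted p of 0.041. Aldh1a1 had 90.3, 94.5 and 96.5 CPM in w12_CD+VC, against 142, 136 and 75.9 CPM in w12_CD, so that its 12-month controls lay below both 12-week groups and its VC libraries above them. The time contrast was 3.01 ± 0.63 for Aldh1a1 and 3.82 ± 0.83 for Entpd5, an endoplasmic reticulum nucleotidase, which had 58.1, 59.1 and 52.9 CPM in m12_CD+VC, against 4.38, 14.6 and 12.8 CPM in m12_CD. Gstt2, a theta-class glutathione transferase, was not called at either time alone, with 2.58, 7.88 and 0 CPM in w12_CD+VC, against 31.6, 44.1 and 42.9 CPM in w12_CD, and with 30.4, 66.4 and 58.5 CPM in m12_CD+VC, against 8.76, 39.0 and 38.3 CPM in m12_CD. These 5 calls were 0 without m12_CD 1 and 0 in DESeq2, where 425 entries had an unadjusted p under 0.05.

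**Figure D5:**
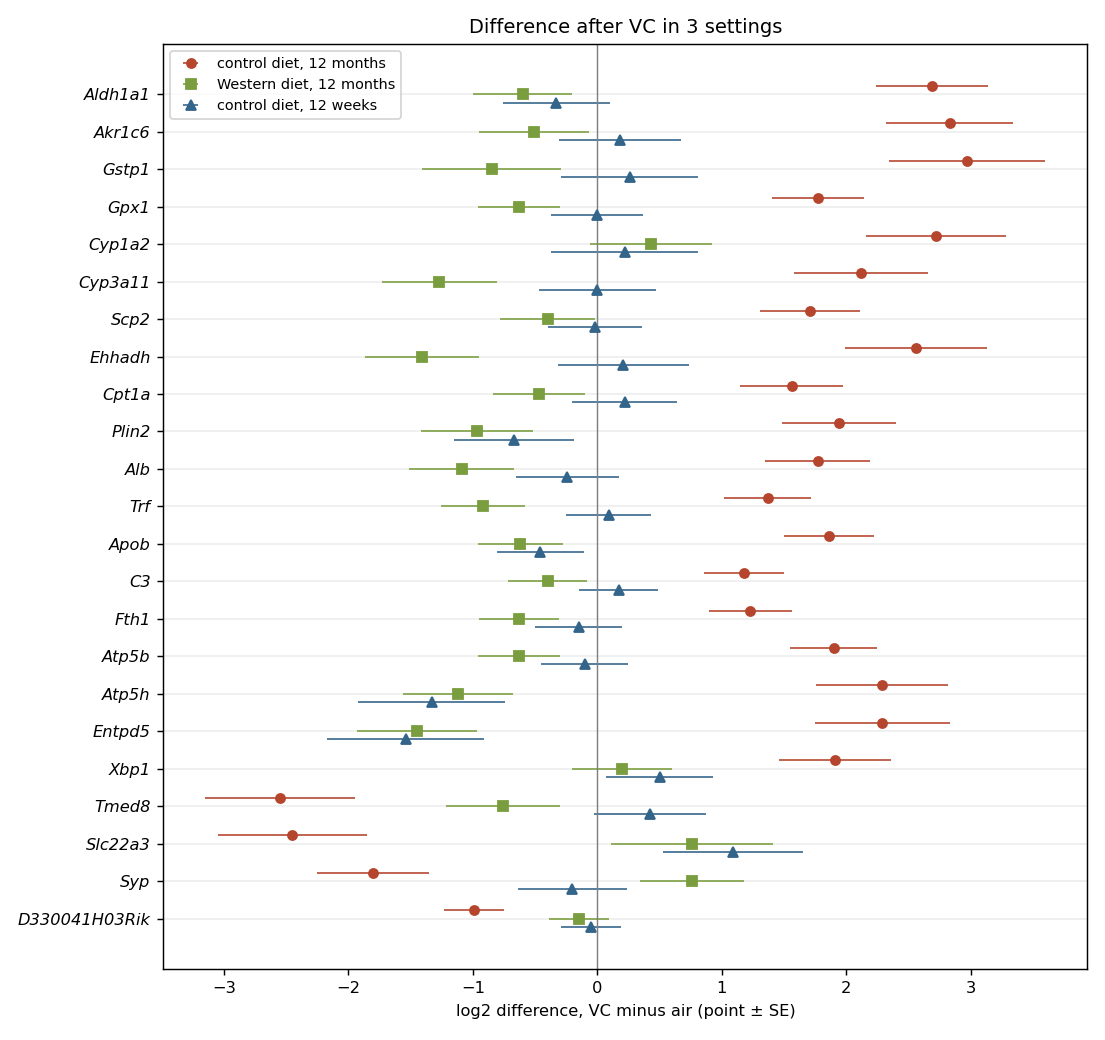
Log2 difference of VC minus air (point ± SE) for 23 named genes on control diet at 12 months, on Western diet at 12 months and on control diet at 12 weeks. Genes that rose on control diet at 12 months lie at or below 0 on Western diet, except Cyp1a2 and Xbp1 at 0.43 and 0.20.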

How the data were processed

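Total RNA from snap-frozen liver was DNase treated, depleted of ribosomal RNA and sequenced, per the labels' protocols. Reads were trimmed with Trimmomatic 0.38, aligned to mm10 with HISAT2 2.1.0 and counted with HTSeq 0.11.2, per the submitters' processing notes; annotation and strand setting: not given in the sources used here. Per gene, the authors deposited raw counts (24421 entries, 8880 of them at 0 throughout) and log2 values. The deposited log2 values equalled the log2 of count over size factor plus 1 in 24 files within 1e-06, and were not used for tests. Counts were fitted with edgeR 4.0.16 (R 4.3.3; robust quasi-likelihood, TMM, filterByExpr by group) in 24 libraries of 8 groups, leaving 4198 entries and a common biological coefficient of variation of 0.317. SEs are the log2 difference over the root of F. Each entry was placed in GENCODE M21 by symbol (23334) or synonym (676), 411 were not placed, and classed by exons overlapping a gene on the other strand (bedtools 2.31.1). Alternatives used DESeq2 1.42.0, limma 3.58.1 and other scalings, filters, fits and left-out libraries.

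Groups follow the labels. Totals ranged from 607 to 962493 counts over the 24 libraries, and no replicates were identical. The members and gene lists were chosen with earlier results of these data known. Genes were named by fold, level, smallest p in a list, interaction p, or a set list of VC, m6A and tumour genes; Plg and Srsf4 are named as partners of named genes, and both and the strand-pair rule were chosen after the values were seen.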

Additional observations from a re-analysis of the deposited data

Results flagged for a closer look

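For the genes below the effect of VC differed between diets or between times in a test of the difference itself, the interaction contrasts of edgeR with an adjusted p under 0.05. Values are log2 differences, VC effect on Western diet minus VC effect on control diet at 12 months, and every contrast shares libraries with the comparison on control diet. Genes of VC, aldehyde and xenobiotic metabolism had interactions of -3.29 for Aldh1a1, -2.56 for Adh1, -2.01 for Aldh7a1, -2.38 for Cyb5a, -2.29 for Cyp1a2, -3.63 for Cyp2c67, -3.39 for Cyp3a11, -3.49 for Ugt2b36, -2.94 for Ces1d and -3.34 for Akr1c6. Glutathione enzymes had -3.82 for Gstp1, -2.40 for Gpx1, -2.80 for Mgst1 and -2.65 for Gsta3. Genes of fat oxidation and storage had -3.97 for Ehhadh, -3.51 for Ppara, -2.11 for Scp2, -2.03 for Cpt1a, -2.91 for Plin2, -2.41 for Acsl1 and -2.65 for Acsl5. Secreted plasma proteins had -2.86 for Alb, -2.29 for Trf, -2.49 for Hpx, -1.73 for Ahsg, -2.22 for Pzp, -2.47 for Apob, -2.25 for Apoa2, -1.57 for C3, -2.36 for C8a, -2.93 for Hc, -2.09 for F2, -2.14 for Serpinc1, -1.66 for Plg and -1.81 for Hp. Ferritin, chaperone, mitochondrial, ribosomal and other genes had -1.86 for Fth1, -2.13 for Ftl1, -2.31 for Hspa8, -2.53 for Atp5b, -3.40 for Atp5h, -2.01 for Rpl13, -3.70 for Rpsa, -2.84 for Lap3, -3.24 for Psap, -3.74 for Entpd5, -1.91 for Glul and -2.91 for Cd5l. Hsph1, Bgn, Ctss, Lyz2, Oaz3 and Zfp668 were at or near 0 counts in a group, so their fitted interactions depend on the prior count and are no bound: -6.60 for Hsph1, -4.22 for Bgn, -5.75 for Ctss, -4.49 for Lyz2, 4.39 for Oaz3 and 5.53 for Zfp668. Genes lower on control diet or higher on Western diet had 3.20 for Slc22a3, 2.56 for Syp, 2.43 for Gtpbp6, 1.99 for Krtcap3, 1.24 for Mroh2a, 2.80 for Zfhx2os and 2.55 for Kmt2d. The difference between times, VC effect on control diet at 12 months minus that at 12 weeks, was 3.01 for Aldh1a1, 2.31 for Apob, 3.62 for Atp5h, 3.82 for Entpd5 and 4.52 for Gstt2. Without m12_CD 1 the interaction with diet called 155 entries and without m12_CD+VC 2 it called 136, against 410 with all libraries, and the share of counts outside overlapping loci moved with these contrasts, a part that was not tested.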

How the results depend on the processing

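For VC on control diet the count of calls, 217, was 412 with RLE scaling, 102 with class-wise TMM, 24 among entries without an overlap alone, 50 in a fit of the compared groups, 134 with limma-voom and 115 with no expression filter, and ranged from 2 to 368 when 1 library was left out. The 2 calls were without m12_CD 1. DESeq2 gave 249, and a fit of 23 libraries gave 293. The interaction with diet, 410 calls, gave 252 in DESeq2, 251 with class-wise TMM, 132 among entries without an overlap, 255 with no filter and 277 in the 4 groups at 12 months, and 111 to 660 with 1 library left out. The difference between times, 5 calls and 571 entries at an unadjusted p under 0.05, gave 0 in DESeq2 (425 unadjusted), with class-wise TMM (483), among entries without an overlap (244), in 23 libraries (592), in the compared groups (508) and with limma-voom (515). It gave 9 with RLE and 18 with no filter, and 0 to 31 with 1 library left out. The cause of these moves was not tested, except that fits of fewer libraries or entries hold less data by construction. No call named in the text changed sign under any of these settings. Of 63 named called genes, 2 were still called without m12_CD 1, 9 without m12_CD+VC 2, 55 with RLE and 34 with class-wise TMM. The labels do not state that replicate numbers pair libraries. Same-number correlations of deviations were 0.080, 0.184 and -0.103, and libraries did not all correlate best with their own number. With 3 libraries a side these values cannot settle whether the numbers pair them. A replicate block gave 237 calls for VC on control diet, 431 for the interaction with diet and 3 for the difference between times. Depth limits entries of few counts, where a count of 0 in m12_CD+VC 2 allows 22.1 CPM.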
